A study of Mus musculus with 2 samples.

Results

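The monocyte gate cells described here were picked from mouse brain tumour single cells by the transcripts of 5 genes that mark inflammatory monocytes and by the near absence of transcripts of other myeloid and lymphoid types. They were 75 cells, 40 in replicate 1 and 35 in replicate 2, of 3186 cells that passed the quality criteria and 4970 deposited barcodes. A gate cell had at least 200 genes, at most 15% mitochondrial unique molecular identifiers (UMIs, which count transcript molecules), at least 1 Malat1 UMI, at least 1 Ccr2 UMI, at least 3 UMIs of Ly6c2, Plac8 and Chil3 in sum, and at least 5 Lyz2 UMIs. It also had fewer than 20 UMIs of C1qa, C1qb and C1qc, fewer than 50 of S100a8 and S100a9, no Siglech and no Cd3e UMI, and less than 1000 CPM of Nras (CPM are counts scaled to a total of 1000000 UMIs), a gene used to set tumour cells apart. These genes chose the cells, so their levels are given as a description with no test.

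The samples were 2 droplet libraries of 1 group: brain tumours of C57BL/6 mice carrying mutant IDH1 (mIDH1), at the symptomatic stage. No untreated, wild-type or other control group is among the samples used here, and the labels do not say whether the libraries came from separate animals. By its title, the study asked how G-CSF, a growth factor of neutrophils that glioma stem cells with the mutation release, bears on myeloid cells. The libraries held 63001350 and 58915133 UMIs and shared 10 cell barcodes, of which 0 were in the gate, and a doublet caller marked 11 and 3 cells, of which 0 were in the gate.

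Inflammatory monocytes, also called classical monocytes, are short-lived white blood cells that leave the bone marrow by way of the chemokine receptor CCR2 and enter inflamed tissue. Mouse cells of this type carry the surface protein Ly6C, and in tissue they can take on features of macrophages or of antigen-presenting dendritic cells. In brain tumours, cells from the blood and resident microglia together make up the myeloid compartment, in which macrophages are known for complement C1q and cathepsin transcripts.

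The gate made up 11.3% of the 354 immune cells of replicate 1 (exact 95% binomial interval 8.20 to 15.1%) and 10.9% of the 321 of replicate 2 (7.71 to 14.8%), a mean of 11.1% ± 0.280 (SD, n = 2). Immune cells here are the gate plus the other quality cells with at least 1 Ptprc UMI (Ptprc encodes the leukocyte antigen CD45), at least 1 Malat1 UMI and less than 1000 CPM of Nras, and 1 gate cell had no Ptprc UMI. The 2 shares differed by less than either interval, which covers counting error only. A gate cell had a median of 8476.5 UMIs in replicate 1 and 9924 in replicate 2, and medians of 2508.5 and 2792 genes. The gate's cells summed to 348569 UMIs in replicate 1 and 364555 in replicate 2. The other 600 immune cells had a median of 8249 UMIs.

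The gate genes did not mark every cell alike. Lyz2, which encodes lysozyme, had a median of 191 UMIs per gate cell (lowest 6, highest 835). Ccr2, the receptor for the chemokine CCL2, had a median of 10 UMIs (lowest 1, highest 41). Plac8 was at 0 UMIs in 1 of the 75 cells, whereas Ly6c2, which encodes a Ly6C chain, was at 0 in 11 and Chil3, which encodes a secreted chitinase-like protein, was at 0 in 40. Thus 64 of 75 cells (85.3%) had a Ly6c2 UMI, 74 (98.7%) a Plac8 UMI and 35 (46.7%) a Chil3 UMI, shares that the rule itself helped to set. Because many cells lacked 1 of the genes that give inflammatory monocytes their name, the cells are called monocyte gate cells here. In the T cell gate, 22 of 56 cells (39.3%) had a Ly6c2 UMI and 24 (42.9%) a Plac8 UMI, so neither gene was particular to the monocyte gate. Chil3, which T cells should lack, had a UMI in 0 of 56, where 3 counts of the total would allow up to 5.36% of cells with a UMI, at a median depth of 5035 UMIs against 9134 in the monocyte gate. After thinning each cell to 3000 UMIs, which left out 2 monocyte gate cells and 5 of the T cell gate, 32 of 73 monocyte gate cells (43.8%) had a Chil3 UMI and 0 of 51 T cell gate cells did. Other myeloid cells had it too: 3 of the 10 neutrophil gate cells left after thinning (30%) and 13 of 310 C1q-high Cx3cr1-positive cells (4.19%).

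Few cells missed the gate by 1 criterion alone, other than by Lyz2 and C1q. Of the cells that failed the gate by 1 criterion alone, 24 failed by Lyz2, with a median of 0 Lyz2 UMIs and at most 4, and 9 of them had a UMI of the dendritic cell receptor gene Flt3. By C1q alone 13 failed, with 20 to 1008 C1q UMIs, whereas the highest gate cell had 16 and 52 of the 75 had 0. The sum of Ly6c2, Plac8 and Chil3 alone kept out 2 cells, and Ccr2, the calgranulin genes S100a8 and S100a9, and Cd3e kept out 1 cell each. Some gate cells lay at the thresholds themselves. The lowest Ccr2 count was 1 UMI, the lowest sum of Ly6c2, Plac8 and Chil3 was 3 UMIs and the lowest Lyz2 count was 6. A stricter gate (a sum of at least 6, at least 10 Lyz2 UMIs and fewer than 10 C1q UMIs) kept 66 cells.

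Markers of other cell types were checked in the gate sums. Of 12 neutrophil markers, 6 and 4 were detected in the 2 libraries, with summed levels of 430.3 and 249.6 CPM, and Ly6g, Retnlg, Ngp, Camp, Ltf and G0s2 were at 0 in both. The T and NK markers summed to 17.2 and 0 CPM, all from Gzmb in 1 cell of replicate 1. The 8 basophil or mast markers summed to 166 and 24.7 CPM, with 5 and 1 of them detected. Their Mcpt8, Cpa3, Gata2 and Cd200r3 UMIs came from that same cell, which had 12808 UMIs and 1874 CPM of Cd209a. The doublet caller had not marked it, and whether it was a mixture of cells was not tested. The 12 macrophage or microglia markers summed to 4249 and 1810.4 CPM against 61064 and 63713 CPM in the C1q-high Cx3cr1-positive cells. In each library of the gate 10 of the 12 were detected. Sall1 was at 0, as was Siglech, which the gate excludes. The 10 markers of conventional dendritic cells summed to 4900.0 and 3259 CPM. They summed to 22244 and 25995 CPM in the dendritic gate and to 7639 and 7883 CPM in the C1q-high Cx3cr1-positive cells. In the 2 libraries of the gate 8 and 7 of the 10 were detected, with Xcr1 at 0 in both. Clec10a had UMIs in 24 of the 75 cells, Flt3 in 22, Clec9a in 7 and Zbtb46 in 6. Most of the gate's sum was Cst3, at 4524 and 2664 CPM, and Cd209a gave 209 and 422 CPM. The part of any of these lists in the differences that follow was not tested.

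Chil3 and Cd209a are shown first by their upstream sequence because their transcripts were found in different gate cells, and Cxcl10 because its transcripts were unevenly spread over those cells. The sequences are the 250 bases before each gene's start in the RefSeq promoter table (GRCm38.p6), written 5′ to 3′ on the gene's strand, which is the minus strand for all 3. Capitals mark matches, on either strand, to GGAAGT, the core of sites bound by ETS factors such as PU.1, to TTGCNNAA, a C/EBP-like motif, or to a motif like the interferon-stimulated response element, which is GAAA, any 2 bases and GAAA again.
Chil3 (chr3:106167565-106167814): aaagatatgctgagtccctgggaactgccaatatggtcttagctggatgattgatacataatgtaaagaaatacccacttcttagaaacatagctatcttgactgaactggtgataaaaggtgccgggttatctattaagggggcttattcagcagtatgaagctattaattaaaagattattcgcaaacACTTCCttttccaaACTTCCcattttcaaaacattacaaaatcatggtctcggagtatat
Cd209a (chr8:3748985-3749234): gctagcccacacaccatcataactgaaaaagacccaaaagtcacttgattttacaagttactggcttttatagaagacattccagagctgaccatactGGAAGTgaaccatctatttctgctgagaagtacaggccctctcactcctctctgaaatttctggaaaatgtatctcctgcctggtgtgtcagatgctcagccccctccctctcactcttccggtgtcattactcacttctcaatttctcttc
Cxcl10 (chr5:92348890-92349139): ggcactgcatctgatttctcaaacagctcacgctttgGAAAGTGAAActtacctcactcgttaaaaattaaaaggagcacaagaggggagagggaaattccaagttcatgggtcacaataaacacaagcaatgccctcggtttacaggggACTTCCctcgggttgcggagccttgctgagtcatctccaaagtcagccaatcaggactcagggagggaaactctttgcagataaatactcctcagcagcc

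GGAAGT lay at 2 places in the Chil3 window, beginning 60 and 46 bases before the start, and singly in the Cd209a window (152 bases before) and the Cxcl10 window (100 bases before). The response element-like motif lay in the Cxcl10 window, 213 bases before the start, and in neither of the others, and TTGCNNAA lay in none of the 3. No match overlapped a match to another motif. Among all 32851 promoter entries, 19.7% held GGAAGT in the same window, 9.6% held TTGCNNAA and 3.0% held the response element-like motif, so the letters of the first are common. A match is a description of the letters and does not show binding.

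Chil3 and Cd209a transcripts were found in different gate cells. A Chil3 UMI was found in 35 of 75 cells and a UMI of Cd209a, which encodes a lectin of monocyte-derived dendritic cells, in 18, and 0 cells had both. Of the 35 Chil3 cells, 33 had a UMI of Hp (haptoglobin) and 21 of Vcan (the matrix protein versican), against 16 and 4 of the 40 cells without Chil3. None of the Chil3 cells had a UMI of Cd7 or Klrd1, receptors better known from lymphocytes. Of the 18 Cd209a cells, 13 had a UMI of Flt3, 12 of Cd7 and 10 of Klrd1, whereas 5 had one of Hp and 1 one of Vcan. Of the Cd209a cells, 14 still had a Ly6c2 UMI. Cd209a UMIs were found in 0 of 56 T cell gate cells (3 counts of the total would allow 5.36% of cells with a UMI), in 1 of 314 C1q-high Cx3cr1-positive cells and in 6 of 39 dendritic gate cells (median 7115 UMIs). Of the same 39 dendritic gate cells, 8 had a Cd7 UMI and 11 a Klrd1 UMI, so neither gene was particular to the Cd209a cells.

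**Figure D1:**
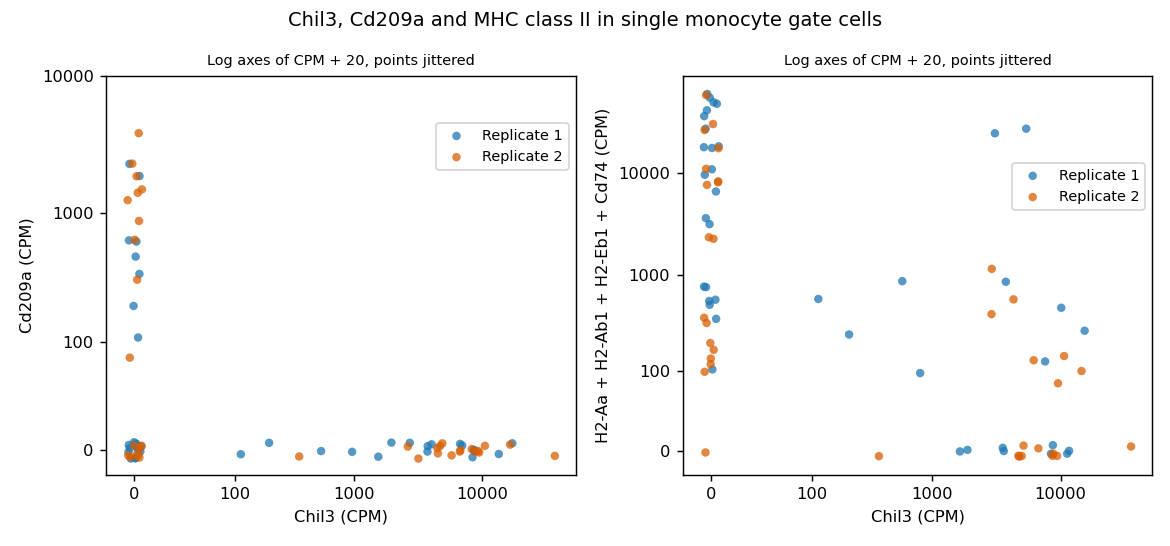
Each point is 1 of the 75 monocyte gate cells, with Chil3 CPM on the horizontal axis and Cd209a CPM (left) or the summed CPM of H2-Aa, H2-Ab1, H2-Eb1 and Cd74 (right) on the vertical axis, on log axes of CPM + 20, with a small jitter, in blue for replicate 1 and orange for replicate 2. The 35 cells with Chil3 lie on the zero line of Cd209a, and 2 of them exceed 10000 CPM of the summed class II genes.

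MHC class II genes, which encode the molecules that present antigen to helper T cells, varied widely between the gate cells. The sum of H2-Aa, H2-Ab1, H2-Eb1 and Cd74 per cell ran from 0 to 53615 CPM in replicate 1 (median 769) and from 0 to 65490 CPM in replicate 2 (median 135). It was 0 in 8 and 11 cells and above 10000 CPM in 13 and 5 cells. Of those 18 cells above 10000 CPM, 2 had a Chil3 UMI, 7 a Cd209a UMI and 12 a Ly6c2 UMI, which 64 of all 75 gate cells had. Some lay at the Lyz2 edge of the gate: cells of replicate 1 with 6, 7 and 8 Lyz2 UMIs stood at 29218, 53615 and 45910 CPM. The lowest of replicate 2, with 8 Lyz2 UMIs, stood at 9485 CPM. Others were rich in Lyz2, such as 1 cell of replicate 1 with 304 Lyz2 UMIs and 29620 CPM. Whether the class II sum followed Lyz2 was not tested. H2-Ab1 UMIs were found in 28 of 75 gate cells (37.3%) and in 2 of 56 T cell gate cells (3.57%), at median depths of 9134 and 5035 UMIs. They were also found in 15 of 39 dendritic gate cells (38.5%) and in 251 of 314 C1q-high Cx3cr1-positive cells (79.9%), at median depths of 7115 and 11488.5 UMIs. Class II transcripts were thus not particular to the monocyte gate.

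Arg1, which encodes the arginine-degrading enzyme arginase 1 known from suppressive myeloid cells, was found in 10 of the 75 cells, with Chil3 in 2 of them and with Cd209a in 0. Of the 10 Arg1 cells, 6 had a UMI of Ly6c2, 9 one of Ly6a, 4 one of Spp1 (osteopontin) and 4 one of Cxcl9. The single cell richest in Arg1 held 14143 CPM, in replicate 2, while 65 cells held none. That richest cell had 1 Ccr2 UMI, the gate's minimum, and 0 UMIs of Ly6c2 and of Chil3. Counting Chil3, Cd209a and Arg1 together, 14 cells had a UMI of none of the 3 and 2 had UMIs of more than 1.

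The cells were summed by presence of a Chil3 UMI in each library to give levels, a division chosen after the values had been seen, and these levels are a description with no test. The cells with Chil3 numbered 18 and 17 (medians of 8343 and 9710 UMIs) and those without 22 and 18 (8909.5 and 10168.5 UMIs), so the side with Chil3 was slightly shallower in both libraries. Vcan stood at 172 and 244 CPM with Chil3 and at 4.91 and 44.0 CPM without. Mgst1, which encodes a membrane glutathione transferase, stood at 703 and 581 CPM with Chil3 and at 78.6 and 220.0 CPM without. Fn1 (fibronectin) stood at 1517 and 1368 CPM against 624 and 377 CPM. Slpi, an inhibitor of neutrophil proteases, the complement gene C3 and the chemokine gene Ccl2 were likewise on the Chil3 side in both libraries. Not all classical monocyte identity genes were. S100a10 stood at 717 and 831 CPM with Chil3 and at 1302 and 1379 CPM without, and Napsa was also lower with Chil3 in both libraries. Cd14 stood at 179 and 612 CPM with Chil3 and at 536 and 127 CPM without, so its side differed between the libraries.

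On the side without Chil3, Arg1 stood at 899 and 572 CPM against 6.89 and 6.25 CPM. Spp1 stood at 2314 and 758 CPM against 20.7 and 18.7 CPM, and 1 cell of replicate 1 held 60.0% of all Spp1 UMIs of the gate. H2-Ab1 stood at 3209 and 1804 CPM without Chil3 and at 469 and 6.25 CPM with it. H2-DMb1, which helps load peptides onto class II molecules, stood at 786 and 553 CPM against 152 and 99.97 CPM. The Arg1 and Spp1 sums of this side rest on 8 cells each, of 40, whereas 24 cells had a UMI of H2-Ab1 and 34 one of H2-DMb1. In replicate 2, 3 gate cells in all had an Arg1 UMI, at 14143, 135 and 83.4 CPM. The Arg1 level of that library thus came almost wholly from 1 cell.

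**Figure D2:**
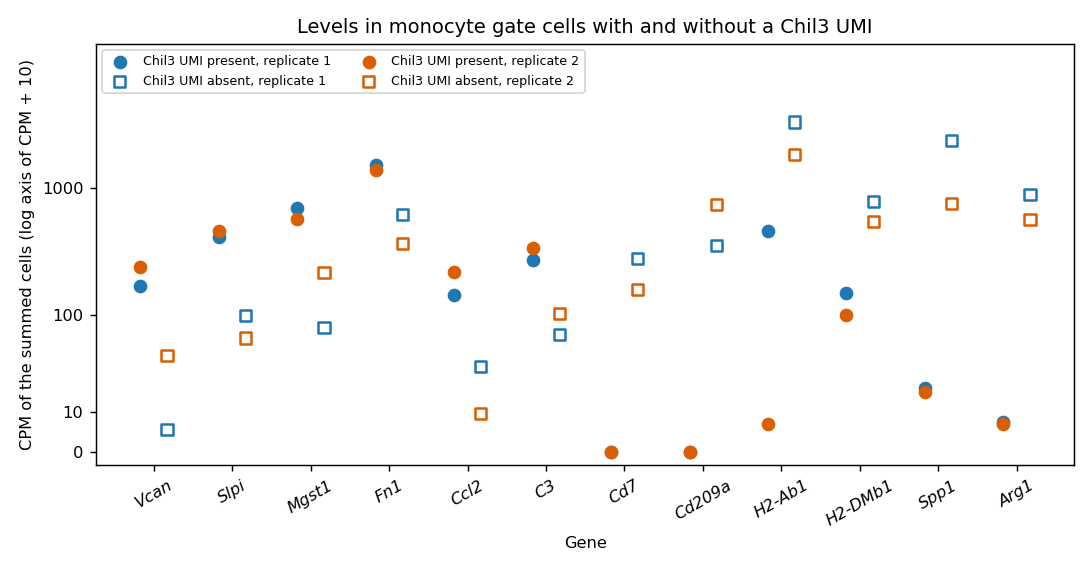
CPM of the summed monocyte gate cells with a Chil3 UMI (filled circles, 18 and 17 cells) and without (open squares, 22 and 18 cells), in blue for replicate 1 and orange for replicate 2, on a log axis of CPM + 10. In both libraries Vcan, Slpi, Mgst1, Fn1, Ccl2 and C3 lie higher with Chil3, and Cd7, Cd209a, H2-Ab1, H2-DMb1, Spp1 and Arg1 lie higher without it.

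Spread between the gate cells was measured as variance over mean after thinning to 3000 UMIs, and genes were ordered by the lower value of the 2 libraries. By that order Lyz2 came first (55.8 and 50.8), followed by the iron storage gene Fth1 (45.1 and 94.2) and Cd74 (42.0 and 42.1). The measure was not corrected for level, so the order is not one of spread relative to the mean. The thinned means were 75.1 and 76.5 UMIs for Lyz2 against 2.38 and 2.91 for Ccl5. Within replicate 1 alone Spp1 (78.5) and Ccl5 (63.8) exceeded Lyz2, and within replicate 2 Fth1 and Cxcl9 (52.7) did. The median over 1256 genes was 1.18 in both libraries. Among the 15 genes of widest spread were Ccl5, Cxcl9 and Cxcl10, chemokines that draw T cells, which 65, 59 and 54 of the 75 cells lacked altogether. Cxcl10 reached 30995 CPM and Cxcl9 29651 CPM in single cells. Lyz2 itself ran from 609 to 135795 CPM around a median of 24644 CPM.

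**Figure D3:**
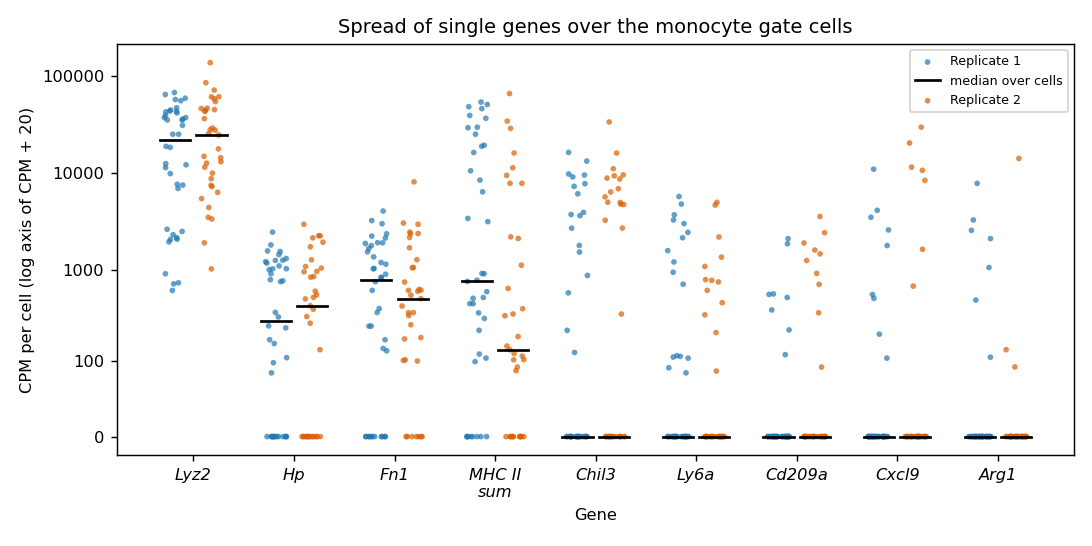
CPM per cell of 8 genes and of the summed class II genes (H2-Aa, H2-Ab1, H2-Eb1 and Cd74) in the monocyte gate, blue for the 40 cells of replicate 1 and orange for the 35 of replicate 2, with the median as a black line, on a log axis of CPM + 20. Lyz2 is present in all 75 cells, while the medians of Chil3, Ly6a, Cd209a, Cxcl9 and Arg1 lie at 0 in both libraries.

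The gate sums were then compared with those of the other immune cells across all genes, with edgeR's quasi-likelihood test and the library as a block. A gene was called, and is written of as higher or lower, at a Benjamini-Hochberg adjusted p under 0.05 and a fitted difference of at least 2-fold. The p-values take the gate as given, and genes that accompany the gate genes from cell to cell had to differ, so a call describes these cells and is no test of the gate. Against the other 600 immune cells, 1612 of 9073 genes (17.8%) were called, 610 higher (6.72%) and 1002 lower (11%). DESeq2 called 522 genes, 300 higher and 222 lower, a split of 57.5% higher against 37.8% in edgeR. The C1q-high Cx3cr1-positive cells, 166 and 148 cells with at least 20 C1q UMIs and at least 2 Cx3cr1 UMIs, gave 71.3% of the UMIs of the other cells, and several genes below turned direction once all C1q-high cells were left out of the other cells, as is said beside each.

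Of the classical monocyte identity genes, 26 of 30 tested were higher and 0 lower, with a median log2 difference of 2.32 against -0.10 over all genes. Vcan stood at 74.6 and 132 CPM in the gate and at 3.14 and 2.97 CPM in the other cells. Its log2 difference was 5.12 ± 0.42 (SE, edgeR adjusted p = 2.26e-15), with the UMIs in 25 of 75 cells. F13a1, which encodes the A chain of coagulation factor XIII, stood at 353 and 406 CPM against 17.5 and 13.5 CPM (log2 difference 4.70 ± 0.20). Both libraries of the gate lay far above both sums of the other cells for these 2 genes, which were picked from the called ones.

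S100a4, a calcium-binding protein of motile cells, stood at 2398 and 2743 CPM against 211 and 199 CPM (log2 difference 3.73 ± 0.17). Hp stood at 574 and 593 CPM against 72.0 and 63.7 CPM (log2 difference 3.19 ± 0.16). Ms4a4c, a membrane protein gene found in 74 of the 75 cells, stood at 864 and 790.0 CPM against 63.9 and 115 CPM (log2 difference 3.34 ± 0.18). Ifitm3, an interferon-induced antiviral membrane protein, had the highest level of the list, 6759 and 6751 CPM against 1459 and 1725 CPM. For these 4 genes both gate sums lay above both sums of the other cells. They were picked from the called genes, so this adds nothing to their calls. Of the tested members, Cd14, Fcgr1, Ly6a and Lst1 were not called, and Ly6c1, which was not tested, had 0 UMIs in the gate. Cd14, a co-receptor for lipopolysaccharide, stood at 387 and 340.1 CPM against 345 and 285 CPM.

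Non-classical monocyte genes, which mark the patrolling cells of the blood, went in both directions, with 2 of 10 tested higher and 5 lower. Nr4a1, a transcription factor of patrolling monocytes, stood at 45.9 and 63.1 CPM against 7.69 and 20.5 CPM and was higher (log2 difference 2.09 ± 0.40), but it was not called once C1q-high cells were left out of the other cells (0.56). Cx3cr1, the fractalkine receptor, stood at 86.1 and 123 CPM against 892 and 1009 CPM and was lower (log2 difference -3.10), but it was higher once C1q-high cells were left out (adjusted p = 4.76e-04). The genes Ace and Treml4 had UMIs in 3 and 5 of the 75 cells.

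Of 20 trafficking and adhesion genes, 8 were higher and 4 lower. Adgre5 (CD97) stood at 269.7 and 288 CPM against 51.4 and 46.5 CPM (log2 difference 2.60 ± 0.18), and Cd44, a hyaluronan receptor, at 293 and 449.9 CPM against 108 and 88.8 CPM (edgeR adjusted p = 1.50e-14). Itgb7 (integrin beta 7) and the chemokine receptor gene Ccr1 were called too, with log2 differences of 2.39 and 1.96. Both lost their calls when C1q-high cells were left out of the other cells, at 0.63 and 0.74. Itgam, which encodes CD11b, was among the lower genes, at 218 and 178 CPM against 440.0 and 504 CPM (log2 difference -1.16), and turned direction without C1q-high cells (0.996), where it was not called.

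Of 31 myeloid transcription factor genes tested, 9 were higher and 5 lower. Klf4, which is needed for the making of inflammatory monocytes, stood at 141 and 134 CPM against 28.0 and 17.2 CPM (log2 difference 2.71 ± 0.25). Cebpb stood at 1681 and 1868 CPM against 794 and 764 CPM (1.27 ± 0.16), and the interferon regulatory factor gene Irf5 at 344 and 310.0 CPM against 123 and 129 CPM (1.46 ± 0.16). Spi1, which encodes PU.1, was found in 74 of 75 cells and stood at 697 and 702 CPM against 487 and 421 CPM, under 2-fold. Maf, a factor of macrophages, was among the lower genes (log2 difference -1.15), but was not called in DESeq2 (adjusted p = 0.263) in thinned cells (-0.48) or without C1q-high cells among the others (0.19).

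Interferon response genes were higher more often than lower, 9 of 35 against 1, with a list median of 0.65. The members called were mainly of the Ifi200 and Schlafen families: Ifi203 stood at 485 and 499 CPM against 71.6 and 71.9 CPM (log2 difference 2.86 ± 0.16) and Slfn1 at 278 and 228 CPM against 56.3 and 64.0 CPM (2.16 ± 0.18). Isg15, a widely used interferon marker, stood at 611 and 623 CPM against 374 and 392 CPM, under 2-fold, and Ifit1, Ifit3 and Rsad2 were not called. Iigp1, an immunity-related GTPase, was the lower gene, at 83.2 and 118 CPM against 282 and 278 CPM (log2 difference -1.39), and was not called without C1q-high cells (0.51).

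Genes of the phagocyte NADPH oxidase, which makes superoxide, and of oxidant defence were higher in 8 of 14 tested and lower in 1, with a median of 1.03. Cybb, its catalytic subunit, stood at 812 and 889 CPM against 369 and 309.8 CPM (log2 difference 1.42 ± 0.16). The glutathione peroxidase gene Gpx1 stood at 1245 and 1432 CPM against 433 and 482 CPM (1.63 ± 0.16). Hvcn1, a proton channel that accompanies the oxidase, was the lower one, with UMIs in 7 of 75 cells.

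Cytokine and chemokine genes were lower in 15 of 31 and higher in 6. Among the lower, the chemokine gene Ccl12 stood at 28.7 and 16.5 CPM against 884 and 934 CPM (log2 difference -5.25 ± 0.25), and Ccl2 at 80.3 and 104 CPM against 569 and 559.6 CPM (-2.52 ± 0.19). Both turned direction once C1q-high cells were left out (0.67, not called, and 1.33). Tnf, the tumour necrosis factor gene, stood at 17.2 and 10.97 CPM against 55.6 and 44.5 CPM, and was not called in DESeq2 (adjusted p = 0.211) or in thinned cells. Ccl3, from 7 cells, stood at 278 and 16.5 CPM against 694 and 797 CPM, and was not called in DESeq2 (adjusted p = 0.227). Ccl4, from 12 cells, stood at 1027 and 27.4 CPM against 961 and 1509 CPM, so its groups overlapped (without replicate 2 the difference was 0.14), and DESeq2 did not call it (adjusted p = 0.597). Of the gate's UMIs, 92.2% for Ccl3 and 91.3% for Ccl4 lay in 1 cell of replicate 1, the one with the basophil markers above. The replicate 1 levels of both genes, and the overlap of Ccl4, thus rest on that cell. Il1rn, the antagonist of the interleukin-1 receptor, stood at 321 and 272 CPM against 47.9 and 74.9 CPM (log2 difference 2.38 ± 0.18), from 25 of 75 cells. The chemokine gene Ccl9 stood at 892 and 658 CPM against 265 and 326 CPM (1.47 ± 0.16), but was not called without C1q-high cells, where its difference was -0.20, or in thinned cells (0.48). Cxcl10 stood at 1492 and 1152 CPM against 499 and 563 CPM (1.39 ± 0.16), from 21 cells. Cxcl9 stood at 643 and 2461 CPM against 381 and 442 CPM, from 16 cells. Its call (log2 difference 1.75 ± 0.21) was absent in DESeq2 (adjusted p = 0.237). Tgfb1, found in 71 of 75 cells, stood at 516 and 529 CPM against 249 and 277 CPM (1.08 ± 0.15), but was not called in the 52 gate cells without any C1q UMI (0.87). Il1b, which encodes interleukin-1 beta, stood at 858 and 302 CPM against 429 and 504 CPM and was not called, and Il10 had 0 UMIs in the gate.

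Of 26 myeloid suppression and checkpoint genes tested, 7 were higher and 6 lower. Wfdc17, found in 69 of 75 cells, stood at 998 and 1201 CPM against 266 and 212 CPM (log2 difference 2.29 ± 0.17), and Clec4e, the receptor Mincle, at 109 and 104 CPM against 11.9 and 20.8 CPM (2.81 ± 0.30). Arg1 stood at 528 and 324 CPM against 110.1 and 169 CPM (1.70 ± 0.18), from 10 of 75 cells, and was not called once C1q-high cells were left out of the other cells (0.80). Of its gate UMIs, 38.4% came from 1 cell of replicate 2. Pirb, an inhibitory receptor, was found in 63 cells and stood at 287 and 357 CPM against 84.6 and 97.7 CPM. The lower genes included the checkpoint ligand gene Cd274, with UMIs in 14 cells, and Entpd1 (CD39), with UMIs in 21. Entpd1 was not called in DESeq2 (adjusted p = 0.271), in thinned cells, with a stricter gate (-0.86) or without C1q-high cells (0.28).

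Within the colony-stimulating factor axis, 2 of 9 genes were higher and 3 lower. Csf3r, the receptor for the factor named in the series title, stood at 48.8 and 54.9 CPM in the gate against 141 and 137 CPM in the other cells, with UMIs in 27 of 75 cells. Csf1r, the receptor of the macrophage growth factor, stood at 359 and 279.8 CPM against 936 and 1003 CPM. Both sums of the gate lay below both sums of the other cells for each gene. The call of Csf3r was absent in DESeq2 (adjusted p = 0.0509), and Csf1r was higher, by 3.52 on the log2 scale, once C1q-high cells were left out. Csf2ra and Csf2rb, the receptor chains for the granulocyte-macrophage factor, stood at 318 and 332 CPM and at 493 and 335 CPM, each under 2-fold from the other cells.

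MHC class II presentation genes were called in 3 of 14, with Ciita, the master regulator of class II transcription, higher and Ctss and H2-Oa lower. Ciita and H2-Oa were not called in DESeq2 (adjusted p = 0.190 and 0.312), H2-Oa was not called in thinned cells nor Ciita with a stricter gate, and Ctss (cathepsin S) turned from -1.62 to 2.06 without C1q-high cells. H2-Ab1 in the gate sums stood at 2068 and 1015 CPM against 1464 and 1273 CPM in the other cells and was not called, so the sums alone do not show the division between single cells given above. Cell cycle genes were lower in 11 of 19, with the proliferation gene Mki67 at 0 UMIs in the gate against 33.5 and 16.8 CPM, a call that was absent in DESeq2 (adjusted p = 0.633). Of glycolysis and hypoxia genes 1 of 21 was called, of oxidative phosphorylation genes 0 of 19 and of dissociation stress genes 1 of 16 (Ier2, which was not called without C1q-high cells or in thinned cells).

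**Figure D4:**
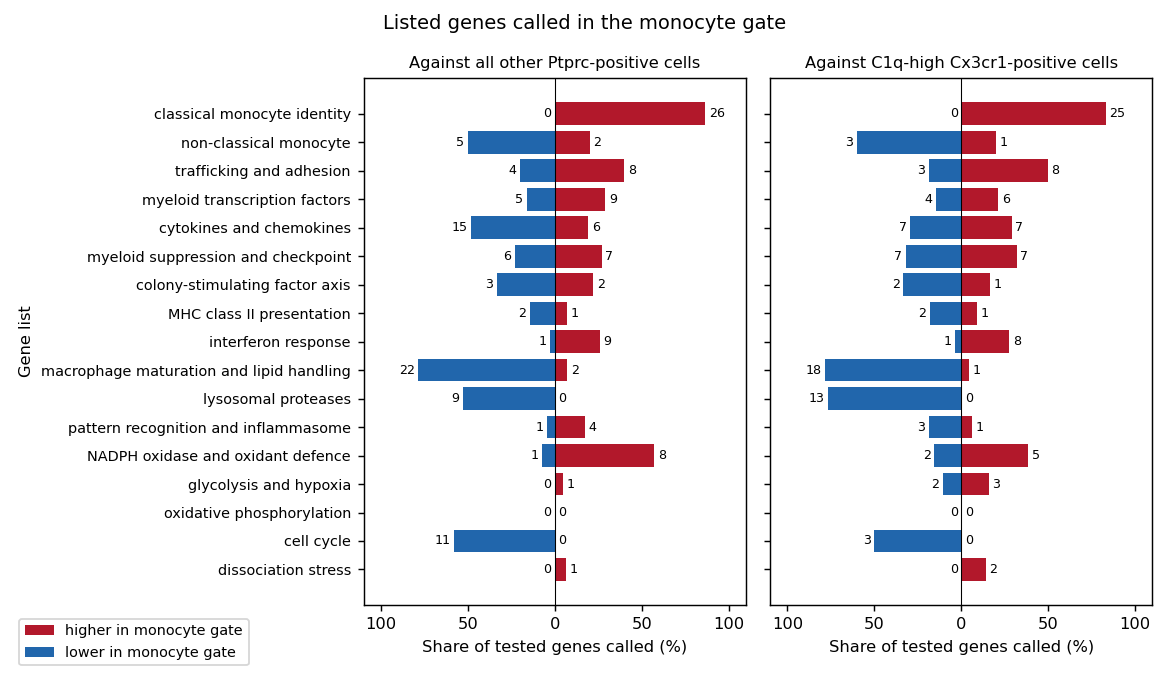
Share of the tested genes of each list called higher (red, to the right) or lower (blue, to the left) in the monocyte gate, against all other Ptprc-positive cells and against the C1q-high Cx3cr1-positive cells, with the number of genes at each bar. Classical monocyte identity genes lie to the right in both panels (26 and 25 of 30), and macrophage maturation (22 of 28 and 18 of 23) and lysosomal genes (9 and 13 of 17) to the left.

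Among the largest changes outside the lists were Cd300lg (60.2 and 63.1 CPM against 1.05 and 1.65 CPM, log2 difference 5.52 ± 0.53), found in 27 of 75 cells, the growth factor gene Nrg1 (51.6 and 57.6 CPM against 2.10 and 2.31 CPM, 4.68 ± 0.50) and Stxbp6 (40.2 and 79.5 CPM against 2.45 and 2.64 CPM, 4.60 ± 0.49). Rnd3 and Prtn3, a serine protease made in myeloid precursors, followed at 4.34 ± 0.47 and 4.28 ± 0.47. These 5 genes were low in absolute terms. Of the 6 haematopoietic progenitor markers, which include Prtn3, 2 and 3 were detected in the 2 libraries of the gate. Prtn3 had 45 UMIs in 19 of the 75 cells, Kit 8 in 3 cells, Cd34 2 and Elane 1. Mpo and Ctsg were at 0 in both libraries.

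Against the C1q-high Cx3cr1-positive cells alone, 898 of 3819 genes (23.5%) were called, 389 higher (10.2%) and 509 lower (13.3%). Cd209a stood at 209 and 422 CPM in the gate and at 0 and 0.938 CPM, from 1 UMI, in those cells, and DESeq2 did not call it (adjusted p = 0.115). S100a4 stood at 2398 and 2743 CPM against 72.4 and 57.2 CPM (log2 difference 5.16 ± 0.56, edgeR adjusted p = 1.56e-05). Ltb4r1, the leukotriene B4 receptor, stood at 204 and 162 CPM against 2.90 and 3.28 CPM (5.61 ± 0.39). Napsa, an aspartic protease gene found in 73 of 75 cells, stood at 706 and 782 CPM against 26.1 and 23.9 CPM (4.73 ± 0.27), and the cytoskeletal gene Ahnak at 585 and 543 CPM against 18.8 and 22.1 CPM (4.61 ± 0.31). Of these genes, all but Cd209a were found in at least 45 of the 75 gate cells.

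Adhesion genes were among the called: Itgb7 stood at 15.5 and 16.9 CPM in them (log2 difference 4.41 ± 0.36) and Itga4, the alpha 4 integrin of leukocyte homing, at 27.0 and 14.5 CPM (3.17 ± 0.34). The chemokine gene Ccl9, found in 65 of 75 cells, stood at 892 and 658 CPM in the gate against 89.8 and 67.6 CPM (3.14 ± 0.41). Arg1 stood at 21.2 and 25.8 CPM in the C1q-high cells (3.97 ± 0.29), and DESeq2 did not call it (adjusted p = 0.637). The interferon list gave 8 of 29 higher and 1 lower, and the oxidase list 5 of 13 higher and 2 lower.

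Macrophage genes were lower in 18 of 23 tested and higher in 1, with a median of -2.11 against -0.06 over all genes. Apoe, which carries lipid, stood at 3468 and 1048 CPM in the gate against 51289 and 53228 CPM (log2 difference -5.04 ± 0.55). Trem2, a lipid-sensing receptor, stood at 88.9 and 49.4 CPM against 1606 and 1717 CPM (-4.76 ± 0.33), and Cd63, a late endosome protein, at 20.1 and 85.04 CPM against 2028 and 2048 CPM (-5.40 ± 0.53). Lgals3, which encodes galectin-3, was the higher gene, at 2662 and 2392 CPM against 592 and 427 CPM (2.16 ± 0.38), with UMIs in 74 of 75 cells. The gate's own limit on C1q was used in the choice of both classes, and its part in these differences was not tested.

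Lysosomal genes were lower in 13 of 17 and higher in 0, with a median of -1.79. Ctsd, the aspartic protease cathepsin D, stood at 287 and 192 CPM against 7166 and 7429 CPM (log2 difference -5.13 ± 0.32). Ctsb (cathepsin B) stood at 551 and 691 CPM against 4499 and 4625 CPM (-3.03 ± 0.35). Ctsb was still found in 74 of the 75 gate cells. The gate thus lay below the C1q-high cells by a wide margin in both libraries for both genes.

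Several genes of the C1q-high cells had no UMI in the gate. Cxcl13, a chemokine that draws B cells, stood at 1411 and 1632 CPM in those cells, at least 362-fold higher than the limit of 3 UMIs over the gate. Lag3, a checkpoint receptor, was at least 95.1-fold lower in the gate, Gas6, a ligand of phagocytic receptors, at least 61.4-fold and Ch25h, a cholesterol hydroxylase, at least 48.3-fold. Of these 4, DESeq2 called Lag3. Among the monocyte-recruiting chemokines, Ccl12 stood at 28.7 and 16.5 CPM in the gate against 1215 and 1299 CPM, and Ccl2 at 80.3 and 104 CPM against 756 and 764 CPM (log2 difference -3.19 ± 0.50). Ccl2 encodes a ligand of the receptor by whose gene the gate was chosen. DESeq2 did not call Ccl12 (adjusted p = 0.0620).

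**Figure D5:**
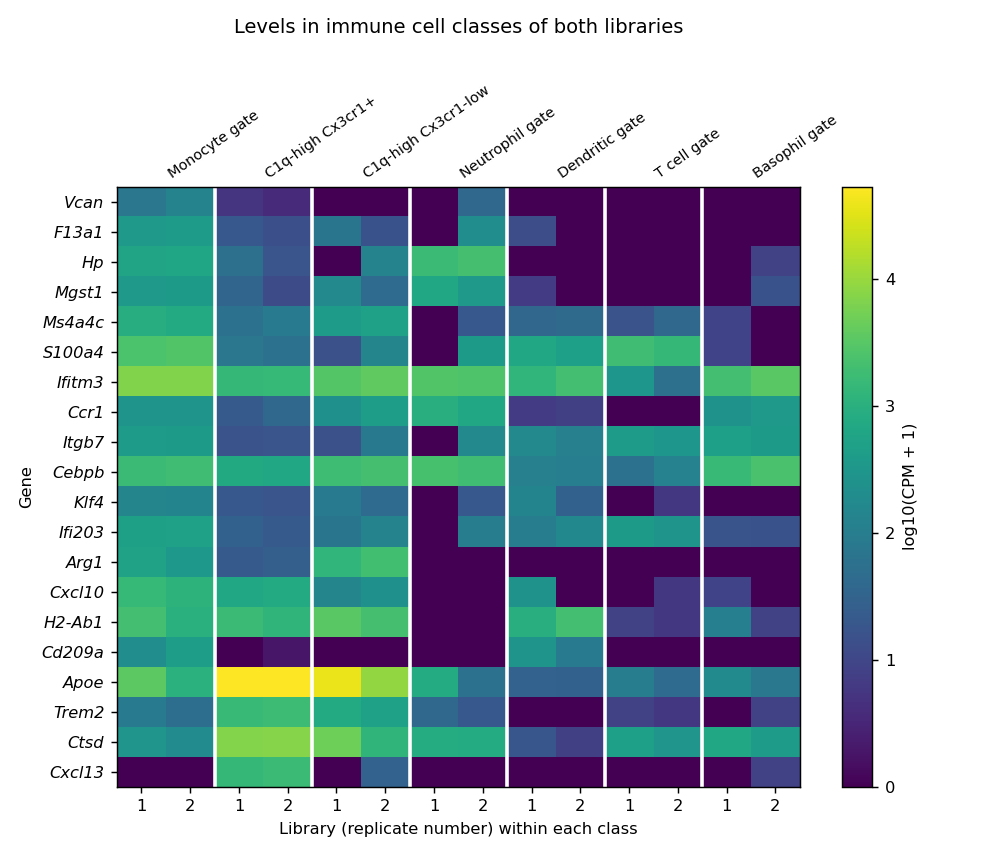
Levels of 20 genes (rows) as log10(CPM + 1) in the sums of 7 immune cell classes, each with replicate 1 on the left and replicate 2 on the right (columns), from dark (0) to yellow (highest). The upper rows from Vcan to S100a4 are brighter in the monocyte gate than in the C1q-high Cx3cr1-positive cells, and Apoe, Trem2, Ctsd and Cxcl13 show the opposite.

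Against the neutrophil gate, 16 and 13 cells with at least 50 UMIs of S100a8 and S100a9, a Csf3r UMI and a median of 2599 UMIs, 719 of 3819 genes (18.8%) were called, 370 higher (9.69%) and 349 lower (9.14%). The median log2 difference of all genes was 0.34, and in DESeq2, where it was 0.13, 245 were higher and 410 lower. MHC class II genes were higher in 9 of 11 and lower in 0. H2-Ab1 had 0 UMIs in the neutrophil gate and was at least 53.5-fold higher in the monocyte gate, over the limit of 3 UMIs in the class, and H2-Aa was at least 42.9-fold higher. Arg1 was at least 14.8-fold higher by the same limit, though DESeq2 did not call it (adjusted p = 0.420).

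Ngp, Camp and Lcn2, genes known from neutrophil granules, were among those lower in the monocyte gate. Ngp stood at 16230.5 and 9061 CPM in the neutrophil gate and at 0 UMIs in the monocyte gate, at least 2990.4-fold lower, and Camp, an antimicrobial peptide gene, was at least 2539.6-fold lower. Lcn2 (lipocalin 2) stood at 8.61 and 8.23 CPM in the monocyte gate against 11785 and 5167 CPM. Il1b stood at 858 and 302 CPM against 10096 and 5298 CPM (log2 difference -4.00 ± 0.47). Of the classical monocyte identity genes, 10 of 30 were higher in the monocyte gate and 6 lower, among the latter Hp at 574 and 593 CPM against 1689 and 2190.3 CPM (-1.95 ± 0.39). Vcan and F13a1 were not called in this comparison, with the neutrophil sums at 0 and 37.4 CPM and at 0 and 206 CPM.

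Against the dendritic gate, 21 and 18 cells with a UMI of Flt3, fewer than 5 of Lyz2 and fewer than 20 of C1q, 1037 of 3819 genes (27.2%) were called, 600 higher (15.7%) and 437 lower (11.4%). DESeq2 called 421 higher and 492 lower. Classical monocyte identity genes were higher in 27 of 30 and lower in 0. Fcgr3, an antibody receptor found in 61 of 75 gate cells, had 0 UMIs in the dendritic gate and was at least 56.2-fold higher. Cebpb stood at 1681 and 1868 CPM against 112 and 104 CPM (log2 difference 4.16 ± 0.37). Interferon response genes were higher in 21 of 29 and pattern recognition genes in 13 of 16, with 0 lower in either.

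Ccr7, Il12b, Relb and Cst3, genes known from dendritic cells, were among those lower in the monocyte gate. Ccr7, the receptor that guides dendritic cells to lymph nodes, had 1 UMI in the gate against 2359.9 and 1742 CPM in the dendritic gate. Il12b, an interleukin-12 subunit, had 0 UMIs and was at least 76.7-fold lower, and was not called in DESeq2 (adjusted p = 0.195). Relb, a factor of dendritic cell maturation, stood at 23.0 and 41.1 CPM against 426 and 493 CPM (log2 difference -3.68 ± 0.38), and the protease inhibitor gene Cst3 at 4524 and 2664 CPM against 16442 and 20748 CPM (-2.31 ± 0.42). Of the class II list 2 of 11 were higher and 1 lower, and H2-Ab1 and Cd74 were not called. Cd209a, at 209 and 422 CPM against 284 and 90.2 CPM, was not called either, so the gate cells and the dendritic gate held it at levels that the test did not separate.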

How the data were processed

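Single-cell RNA was measured in 2 droplet libraries. The UMI counts are as deposited by the authors, who used Cell Ranger 3.1 and mm10 per the submitters' processing notes. The gene annotation is not given in the sources used here. Positions come from GENCODE M21 (GRCm38). The members and lists were chosen with earlier results of these data known. Sums of raw counts over the cells of each class in a library were fitted with edgeR 4.0.16 (TMM factors, filterByExpr, library as a block): 1 fit of the gate against the other immune cells (1 residual degree of freedom) and 1 fit of 6 classes. A class needed 10 cells in each library; the planned C1q-high Cx3cr1-low class (9 and 11 cells) left the fit and the Cx3cr1-positive class took its place. The libraries are paired by construction, since each gives both classes. p-values measure only how differences vary between these libraries, which may be technical. Each SE of a log2 difference was derived from the test and not fitted directly. It is the absolute difference divided by the square root of the quasi-likelihood F statistic. Genes of the monocyte gate, Ptprc and mitochondrial genes were not tested, and genes of the comparator gates (Cx3cr1, Csf3r, Flt3 and the basophil genes) were tested against the other immune cells only. Tests were checked on simulated data. CPM is a class's count scaled to a total of 1000000 UMIs. Named genes were those of the lists, the 10 largest changes in each direction, and the 15 of widest spread. Doublets were called with scrublet (expected rate 0.04) and kept. R 4.3.3, DESeq2 1.42.0, scanpy 1.11.5 and scipy 1.17.1 were used. Results for some genes are not reported here.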

Additional observations from a re-analysis of the deposited data

How the results depend on the processing

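Depth and cell numbers limit these results: the gate had 75 cells, the neutrophil gate 29, and many named genes rest on fewer than 30 cells. Against the other immune cells, 1612 genes were called, 522 with DESeq2 (which gave 1941 genes no adjusted p), 638 with cells thinned to 3000 UMIs, where 5652 genes were tested, and 2610 against all other cells with low Nras. Thinning gave 538 genes against the C1q-high Cx3cr1-positive cells and 615 against the dendritic gate, and could not be fitted for the neutrophil gate, which fell under 10 cells. Without a low-count filter, 1525 genes were called against the C1q-high Cx3cr1-positive cells. The other settings with a test kept each count within 1.5 times. With no replicate block the counts were 1528 against the other immune cells, 928 against the C1q-high Cx3cr1-positive cells, 745 against the neutrophil gate and 1114 against the dendritic gate. A single library leaves no test, so genes past 2-fold were counted: 2563 to 2833, 1010 to 1078, 1846 to 2183 and 1494 to 1517. The C1q-high Cx3cr1-low class, kept in the fit as an alternative added after seeing the data, gave 466 genes of 3836. The gate's share of immune cells was 9.83% with a stricter gate, 10.3% without the Malat1 criterion and 7.95% with C1q-free gate cells alone, and 10.9 to 11.3% in the single libraries. Of 58 named genes in the comparison with the other immune cells, 10 changed direction once C1q-high cells were left out of them: Cx3cr1 (2.0003), Itgam (0.996), Maf (0.19), Iigp1 (0.51), Entpd1 (0.28), Csf1r (3.52), Ctss (2.06), Ccl2 (1.33), Ccl12 (0.67) and Ccl9 (-0.20), and 8 others lost their call. Against all other cells with low Nras, Entpd1 (0.028) changed direction and 9 lost their call, among them Klf4 (0.67). In the single libraries Ccl4 ran from -5.59 to 0.14, changing direction without replicate 2, and it lost its call with no replicate block (-1.18) and with C1q-free gate cells. Thinning ended the calls of Maf, Entpd1, H2-Oa, Ier2, Ccl9 and Tnf, and the stricter gate those of Entpd1 and Ciita. DESeq2 ended 10 calls of these 58, 9 of 34 against the C1q-high Cx3cr1-positive cells, 4 of 20 against the neutrophil gate and 3 of 16 against the dendritic gate. The cause was not tested.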

Other observations

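Division of the gate cells at each library's median of the class II sum gave levels that in part resembled the Chil3 division. Slpi stood at 472 and 461 CPM below the median and at 5.59 and 41.9 CPM above it. Hp stood at 914 and 956 CPM below and at 251 and 262 CPM above, and Thbs1, which encodes thrombospondin 1, at 631 and 403 CPM against 224 and 78.6 CPM, although Thbs1 lay on opposite sides of the Chil3 division in the 2 libraries. The antioxidant gene Gsr and the lipase-like gene Smpdl3a lay on the same side in both libraries. Idh1, the cytosolic isocitrate dehydrogenase gene, was also among the 12 leading genes of the lower side, at 171 and 104 CPM against 27.9 and 31.4 CPM, with UMIs in 20 of 38 cells against 8 of 37. Cells cut by their own values are not replicates, the division was made on measured values, and no test was run.

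The few gate cells with a C1q UMI after thinning, 5 and 4 against 35 and 29 without, carried more of some macrophage genes in both libraries. Aif1 stood at 1157 and 542 CPM in them against 275 and 183 CPM, Lgmn at 514 and 619.9 CPM against 205 and 118 CPM, and Tgfbi at 1821 and 2609 CPM against 778 and 913 CPM. Arg1, Spp1 and Cxcl10 lay on the side without C1q in both libraries, but had UMIs in 10, 14 and 21 of all 75 gate cells. With 5 and 4 cells on the C1q side, the side of such genes can be set by single cells. The part of the cells with C1q in any difference was not tested.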
